A study of Pogonatum aloides with 7 samples.

Results

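Big capsules of the moss Pogonatum aloides at stage 5 were compared with small capsules at stage 2, unigene by unigene. A unigene is a transcript sequence put together from the reads alone, with no genome. Of 74566 unigenes in the series, the comparison kept 35624 that reached 1 RPKM or more in either library, and 9554 of these reached 10 RPKM. RPKM counts the reads of a unigene per kilobase of its length and per fixed number of reads in the library. The series holds 7 samples of wild type plants: capsules of stages 1, 2 and 3 (small), stage 4 (middle) and stage 5 (big), seedlings called young gametophytes, and a pool of capsules and gametophytes that was not analysed here. Each had 1 library, made from total RNA extracted with TRIzol. How many capsules went into a library is not given in the sources used here. With 1 library a side there was no test, and every difference describes this pair of libraries.

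The moss capsule is the spore-bearing organ at the tip of the diploid sporophyte, which stays attached to the haploid leafy gametophyte and is fed by it. Inside a growing capsule, spore mother cells divide by meiosis, and the spores then build thick walls, store reserves and become dry and dormant. Around them form a central column, a layered capsule wall and, under the lid, the ring of teeth that later releases the spores. A capsule therefore changes its mix of tissues as it grows. In a bulk library, fewer cells of a type and less RNA per cell cannot be told apart. The unigene identifiers carry no gene names, so neither the tissue label nor any pathway could be checked against known genes. The unigenes are described by their levels.

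Both libraries were of nearly the same depth. Whole reads worked back from the RPKM steps gave totals of 5729201 reads for stage 5 and 5752394 for stage 2, between 5458335 and 5751812 for the other 3 capsule libraries, and 3821669 for the gametophyte. At this depth 3 reads on a unigene of 1 kb are worth 0.524 RPKM for the big capsules and 0.522 RPKM for the small ones. Stage 5 listed 43323 unigenes and stage 2 listed 40746. Intervals given with read ratios cover counting error only.

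More unigenes were higher than lower in the big capsules. With RPKM + 1 differing at least 2-fold, 8749 were higher in stage 5 (24.6% of 35624) and 5713 were lower (16%). Among the 9554 unigenes of 10 RPKM or more, 2064 were higher (21.6%) and 1728 were lower (18.1%). The median log2 ratio was 0.20 over the former set and 0.09 over the latter. Scaling by a trimmed mean of ratios lowered every ratio by 0.15 on the log2 scale of RPKM, and scaling by the median ratio lowered it by 0.14. Relative to the trimmed-mean shift, 7718 were higher and 6383 lower at 1 RPKM, while at 10 RPKM the order turned, with 1769 higher and 2006 lower. With median-ratio scaling it also turned at 10 RPKM, with 1788 higher and 1986 lower.

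Many of these ratios rested on few reads. The median unigene among the 8749 had 9 reads in stage 5 and 1 in stage 2, and the median among the 5713 had 2 reads in stage 5 and 12 in stage 2. The 95% counting interval of the read ratio lay wholly beyond 2-fold for 2387 higher (6.70%) and 1630 lower unigenes (4.58%) at 1 RPKM. At 10 RPKM these numbers were 1419 (14.9%) and 1141 (11.9%). At the edge of the set, the lowest unigene kept stood at 1.0003 RPKM in stage 5 and 0 in stage 2, and the highest left out at 0.999 and 0.306. At the edge of the 10 RPKM set, the lowest kept stood at 10.01 RPKM in stage 5 and 5.998 in stage 2, and the highest left out at 0.324 and 9.998.

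Across the 35624 unigenes, Pearson r of log2(RPKM + 1) between the pair of libraries was 0.78 and Spearman rho of the levels was 0.58. At 10 RPKM these were 0.63 and 0.68. Both coefficients run over unigenes of the same libraries, and unigenes are not replicates. The central 90% of log2 ratios ran from −1.73 to 2.12 at 1 RPKM, about as far below the median of 0.20 as above it. At 10 RPKM it ran from −2.03 to 2.67 around a median of 0.09, further toward the high side. Large differences leaned to the big capsules: at 10 RPKM 797 unigenes (8.34% of 9554) were at least 4-fold higher and 494 (5.17%) lower. At least 8-fold higher were 385 (4.03%) and lower 149 (1.56%), and at least 16-fold higher were 157 (1.64%) and lower 41 (0.429%). At least 100-fold higher were 21 unigenes (0.220%), and 0 (0.00%) were 100-fold lower.

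**Figure D1:**
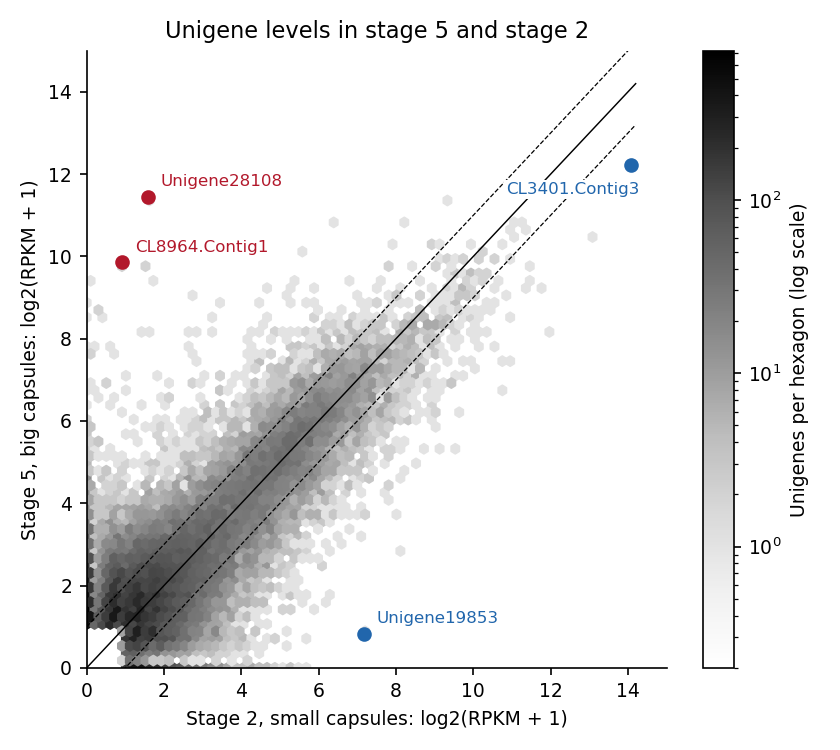
Level of each of 35624 unigenes in stage 2 (horizontal) and stage 5 (vertical), both as log2(RPKM + 1); shading counts unigenes per hexagon, the solid line marks equal levels and the dashed lines a 2-fold ratio of RPKM + 1. Red and blue points mark the named unigenes that were higher and lower in stage 5; Unigene28108 and CL8964.Contig1 lie far above the line and Unigene19853 far below it.

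In RPKM as deposited, the balance of higher and lower unigenes varied with the level. Among the 26070 unigenes whose higher level lay from 1 to under 10 RPKM, 25.6% were higher in stage 5 and 15.3% were lower. From 10 to under 100 RPKM, 21.4% of 7841 were higher and 17.4% lower, and from 100 to under 300 RPKM, 23.9% of 1311 were higher and 18.4% lower. Above that the balance was the other way. From 300 to under 1000 RPKM, 67 of 339 (19.8%) were higher and 94 (27.7%) lower, with a median log2 ratio of −0.52. Of the 63 unigenes of 1000 RPKM or more, 9 (14.3%) were higher and 28 (44.4%) lower, with a median log2 ratio of −0.92. These 63 held 16.8% of the summed RPKM of stage 2 and 9.55% of that of stage 5. With trimmed-mean scaling the 63 split into 9 higher and 32 lower. Under the same scaling the balance turned from 10 to under 100 RPKM, with 1434 higher and 1584 lower, and from 100 to under 300 RPKM, with 262 higher and 276 lower. Median-ratio scaling turned both bands too, to 1448 against 1567 and 267 against 274. From 1 to under 10 RPKM more unigenes were higher than lower under both scalings, at 5949 against 4377 (trimmed mean) and 6007 against 4349 (median ratio).

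**Figure D2:**
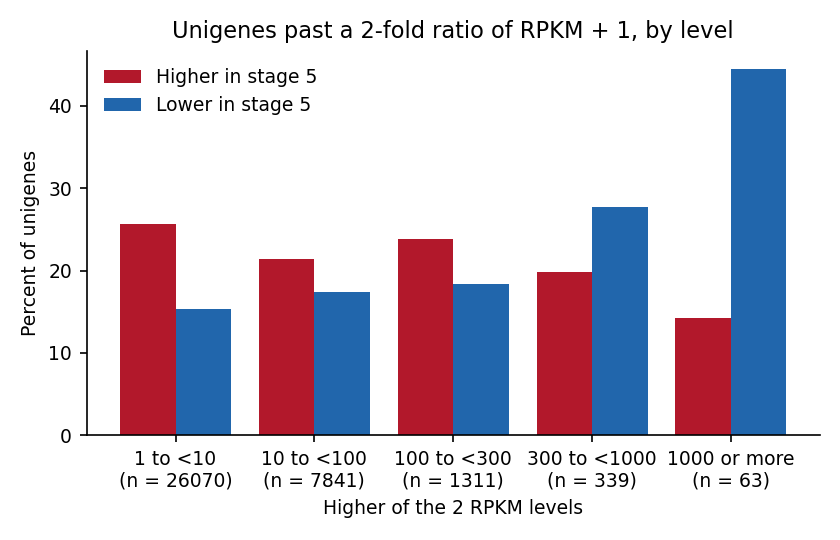
Percent of unigenes with a ratio of RPKM + 1 of at least 2 toward stage 5 (red) or stage 2 (blue), by the higher of the 2 RPKM levels; n is the number of unigenes in each band. In these values as deposited red bars are taller up to 300 RPKM, an order that turns from 10 to under 300 RPKM under either scaling, and the blue bar reaches 44.4% at 1000 RPKM or more.

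Expression was less concentrated in the big capsules. The most abundant unigene held 0.747% of the summed RPKM in stage 5 and 2.58% in stage 2. The 10 most abundant held 3.75% and 7.57%, the 100 most abundant 14.9% and 22.2%, and the 1000 most abundant 45.4% and 53.9%. It took 1257 unigenes to reach 50% of the sum in stage 5 and 793 in stage 2. The effective number of unigenes, which is the number of equally abundant unigenes that would give the same Shannon entropy, was 7241 in stage 5 and 4789 in stage 2. Counted in reads in place of RPKM the contrast was smaller, with 16.3% and 20.7% in the 100 most abundant. The summed RPKM itself was 636518 in stage 5 and 676997 in stage 2.

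Stage 5 had the lowest of all 6 shares in the 100 most abundant unigenes. The other libraries stood at 19.0% (stage 1), 23.5% (stage 3), 20.7% (stage 4) and 20.3% (gametophyte). By this share stage 2 lay within the range of the others and stage 5 below it. By the share in the 1000 most abundant, stage 2 was the highest at 53.9%, ahead of stage 3 at 52.9%. Stage 5 was the lowest at 45.4%, below the gametophyte at 47.1%. Stage 2 also took the fewest unigenes to reach 50% of the sum, 793 against 835 in stage 3. By effective number, stage 5 was the highest capsule library, and the gametophyte was higher still at 7459. The other capsules were at 6170 (stage 1), 4771 (stage 3) and 5281 (stage 4). No spread between libraries of the same stage is known for these values.

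**Figure D3:**
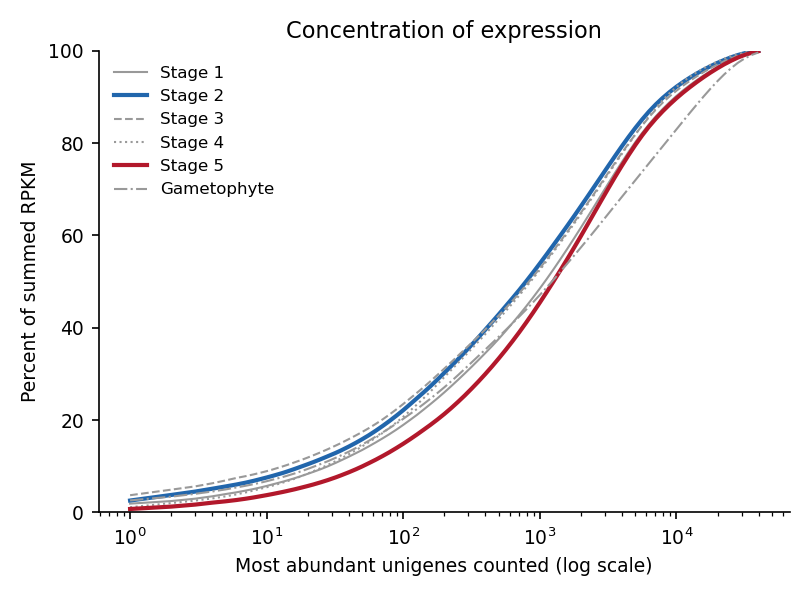
Percent of summed RPKM held by the most abundant unigenes of each library, against the number of unigenes counted (log axis). The stage 5 line (red) runs below the stage 2 line (blue), at 14.9% against 22.2% for 100 unigenes; the other 4 libraries are grey.

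The leading unigenes of the small capsules held a smaller share in the big ones. Of the 10 most abundant in stage 2, 7 were lower in stage 5 and 3 were within 2-fold. Their summed share was 7.57% in stage 2 and 2.49% in stage 5. Among the 100 most abundant of stage 2, 44 were lower, 56 were within 2-fold and 0 were higher. Among the 100 most abundant of stage 5, 30 were higher, 8 lower and 62 within 2-fold. Choosing a set by its level in one library favours unigenes that are high there, so the numbers to compare are 44 lower and 30 higher. The lists of 100 had 55 unigenes in common, and the lists of 10 had 4.

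The unigenes that stayed within 2-fold carried most of the expression, and they were also most of the unigenes. At 10 RPKM they numbered 5762 of 9554. They held 55.8% of the summed RPKM of stage 5 and 55.3% of that of stage 2, where all 9554 held 88.5% and 90.9%. That the shares of the 5762 in stages 5 and 2 were alike follows from choosing unigenes within 2-fold. The share of the 5762 was also 54.7% to 56.1% in stages 1, 3 and 4, and 35.3% in the gametophyte. The 2064 higher unigenes held 23.7% of the sum in stage 5 and 5.63% in stage 2. The 1728 lower ones held 8.99% in stage 5 and 29.9% in stage 2.

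Gains were spread over more unigenes than losses. Summed over all unigenes, levels that were higher in stage 5 added 194914 RPKM and levels that were lower took away 235392 RPKM. That losses exceeded gains restates the unequal summed RPKM, 636518 in stage 5 and 676997 in stage 2. To reach 50% of the gains took 636 unigenes, and 218 sufficed for the losses. The 10 largest gains made up 6.93% of all gains, whereas the 10 largest losses made up 15.9% of all losses.

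The largest gain was that of Unigene28108, with a recovered length of 3128 bases. It stood at 2795 RPKM (50096 reads) in stage 5 and 2.001 RPKM (36 reads) in stage 2. Of the other capsules, stage 1 had 840 RPKM, stage 3 had 2.002 RPKM and stage 4 had 32.4 RPKM. No read was found in the gametophyte, which allows up to 0.251 RPKM. It was thus highest in stages 5 and 1, far lower in stage 4 and lower again in stages 2 and 3, and it was the third most abundant unigene of stage 5 but ranked 19860 in stage 2. Its ratio of RPKM + 1 was 932, a log2 ratio of 9.86, and its ratio of reads was 1397 (95% exact counting interval 1009 to 1995).

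After Unigene28108, the largest log2 ratio among unigenes of 10 RPKM listed in both files was that of CL8964.Contig1, of 1552 bases. It stood at 932 RPKM (8290 reads) in stage 5 and 0.896 RPKM (8 reads) in stage 2. Stage 1 had 84.9 RPKM of it, stage 3 had 0.673 and stage 4 had 185, with no read in the gametophyte. Its log2 ratio was 8.94, and its ratio of reads was 1040 (95% exact counting interval 528 to 2411). The other 3 contigs listed under the same cluster number were also high in stage 5, where they were at 462, 360 and 191 RPKM, and they had no read in stage 2, stage 3 or the gametophyte. In stage 1 these 3 stood at 40.3, 32.3 and 17.5 RPKM and in stage 4 at 29.99, 25.4 and 8.09 RPKM, so they were higher in stage 1 than in stage 4, unlike CL8964.Contig1. Whether contigs under one number are near copies is not stated; reads of near copies may have been divided among them, which would make the value of each uncertain.

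The 20 largest gains started from widely different levels in the small capsules of stage 2, from 0 to 652 RPKM. Of the 20, 7 stood below 10 RPKM in stage 2, and the same number had no read in the gametophyte. The second largest gain was from 652 to 2658 RPKM, a 4.07-fold ratio of RPKM + 1, in a contig of 1770 bases that was also at 1896 RPKM in stage 1 and 1391 in stage 3. The third was from 85.3 to 1738 RPKM (20.1-fold), and stages 1, 3 and 4 had 1098, 191 and 224 RPKM. A further one, from 1.91 to 820 RPKM, was at 2088 RPKM in stage 4, above its level in stage 5. Among the 4 libraries not compared, stage 1 held the highest level of 13 of the 20 and stage 4 of 7. Over all 9554 unigenes of 10 RPKM, stage 1 was the highest of these 4 for 25.6% and stage 4 for 38.4%.

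The largest loss was that of CL3401.Contig3, of 1053 bases, the most abundant unigene of both libraries. It stood at 4757 RPKM (28697 reads) in stage 5 and 17433 RPKM (105595 reads) in stage 2. The other capsules lay at 12653 (stage 1), 25725 (stage 3) and 6496 RPKM (stage 4), and the gametophyte at 1.24 RPKM. Stages 4 and 5 were thus both lower than each of the 3 small stages. Its log2 ratio was −1.87, and it had 3.66 times as many reads per library total in stage 2, with a 95% exact counting interval from 3.62 to 3.71. The other 2 contigs of its cluster were far less abundant, at 2.47 and 9.81 RPKM in stage 5 against 35.6 and 103 RPKM in stage 2.

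The next losses were of different kinds. The second largest was from 8201 to 1434 RPKM, in a unigene of 789 bases that reached 21908 RPKM in the gametophyte. The third was from 4178 to 272 RPKM (15.3-fold), where stages 1, 3 and 4 had 1850, 2357 and 775 RPKM and the gametophyte 41.2 RPKM. It passed from rank 4 in stage 2 to rank 304 in stage 5. A loss of another kind was from 1755 to 108 RPKM (16.1-fold), in a contig of 2186 bases. That contig was as abundant in stage 4, at 1661 RPKM, but stood at 4.93 RPKM in stage 1 and 25.9 in stage 3. A unigene of 1438 bases, which was at 1941 RPKM in stage 2 and 512 in stage 5, had the same shape, with 1389 RPKM in stage 4 against 6.41 and 26.6 RPKM in stages 1 and 3. Of the 20 largest losses, 18 passed a 2-fold ratio, and all 20 were read in every library.

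**Figure D4:**
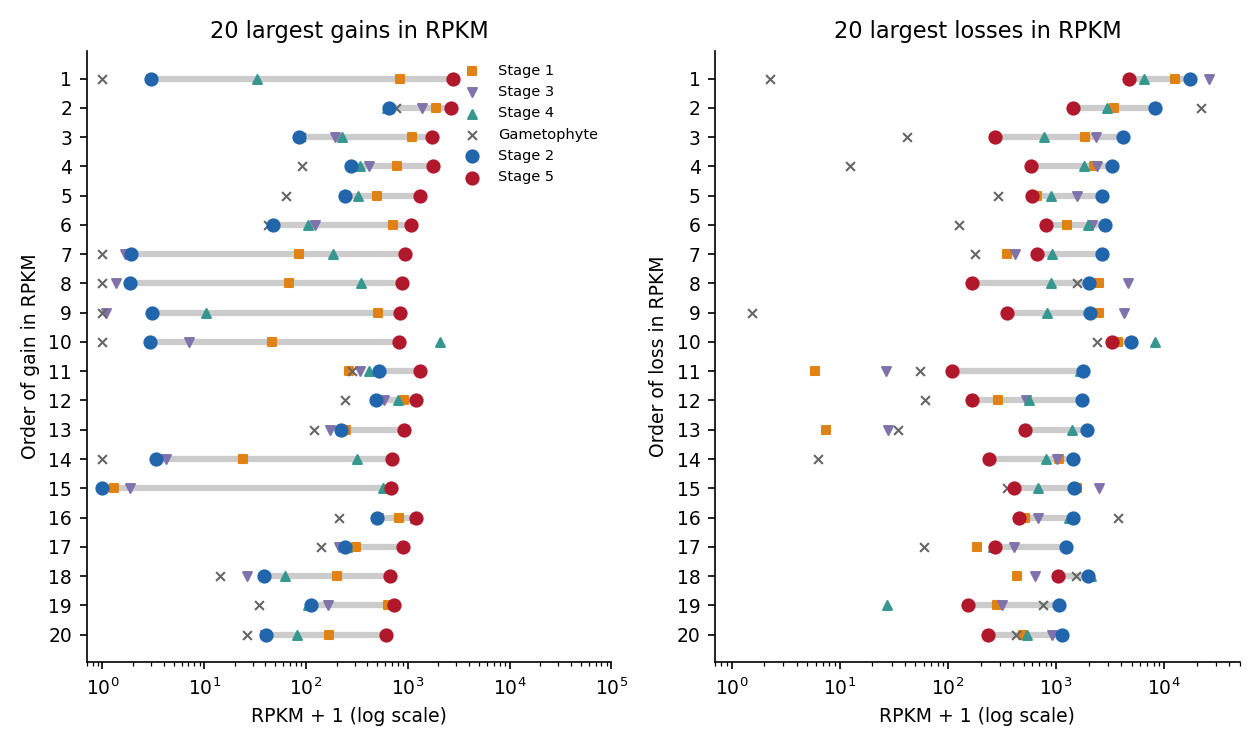
Levels as RPKM + 1 (log axis) of the 20 unigenes with the largest gain (left) and the 20 with the largest loss (right) in RPKM from stage 2 (blue circles) to stage 5 (red circles), ordered by the size of the difference. On the left, stage 1 squares lie near stage 5 for some unigenes and far below it for others, with medians of 401 RPKM in stage 1 and 927 RPKM in stage 5. Stage 1 is the highest other library there for 13 of 20.

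Among the 157 unigenes at least 16-fold higher in stage 5 (1.64% of 9554), the next highest level was mostly in stage 4 or stage 1. For 71 of them (45.2%) stage 4 was the highest of the 4 libraries not compared, against 38.4% of all 9554, and for 70 (44.6%) it was stage 1, against 25.6%. Stage 3 was the highest for 3, the gametophyte for 3, and 10 were at 0 in all 4. The 71 had median levels of 48.2 RPKM in stage 5 and 16.1 in stage 4. Their medians were 0.199 RPKM in stage 1, 0.184 in stage 2, and 0 for both stage 3 and the gametophyte. The 70 had median levels of 44.1 RPKM in stage 5 and 28.7 in stage 1. Stage 4 had a median of 2.36 RPKM, stage 3 of 0.372, stage 2 of 0.163 and the gametophyte of 0. A level of 10 RPKM was reached in stage 4 by 58 of the 157 and in stage 1 by 61, among them 29 that reached it in both, and 67 reached it in neither. Of all 9554, 6988 reached it in stage 4 and 6471 in stage 1, among them 5619 in both, and 1714 reached it in neither. The 157 thus reached this level less often than all 9554 did, in stage 4 and in stage 1. Both sets of unigenes had medians near 0 in stages 2 and 3 alike. Which libraries were high separates the sets by construction, and the sets are a description with no test.

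These 157 together made up 3.801% of the summed RPKM in stage 5 and 0.0531% in stage 2. Stage 4 gave them 2.47%, stage 1 gave 1.68%, stage 3 gave 0.0884% and the gametophyte 0.0363%. No read was found in the gametophyte for 114 of them (72.6%), against 14.5% of all 9554. In stage 3, 73 (46.5%) had no read, against 7.19% of all 9554. These absences were not particular to the 157. Of the 41 unigenes at least 16-fold lower in stage 5, 25 (61.0%) had no read in the gametophyte and 23 (56.1%) had none in stage 3. In stage 2, 78 of the 157 (49.7%) had no read, against 1.54% of all 9554, a difference that follows from choosing them for low stage 2 levels. The counting interval lay beyond 2-fold for all 157, which follows largely from choosing them for a 16-fold ratio in the same libraries. The number at least 16-fold higher was 138 with trimmed-mean scaling and 139 with median-ratio scaling. The 10 unigenes at 0 in all 4 other libraries stood at 15.9 to 54.8 RPKM in stage 5 with 36 to 289 reads, and 9 of them also had no read in stage 2.

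The pair of stages 1 and 3 uses neither compared library. There, 79 of the 157 (50.3%) were at least 2-fold higher in stage 1, against 9.68% of all 9554, and 2 were lower (7.41% of all 9554). Between stages 4 and 3, a comparison that shares stage 3 with the former, 92 of the 157 (58.6%) were at least 2-fold higher in stage 4, against 23.8% of all 9554, and 6 were lower, against 15.3%. This was not particular to the 157. Of the 41 unigenes at least 16-fold lower in stage 5, 26 (63.4%) were likewise higher in stage 4 and 6 (14.6%) lower. Of the 2064 unigenes at least 2-fold higher in stage 5, 26.9% were higher in stage 4 than in stage 3 and 15.6% lower. For the 1728 lower ones these shares were 37.6% and 22.9%. Over all 2064 unigenes at least 2-fold higher in stage 5, stage 1 was at least 2-fold higher than stage 3 for 28.1% and lower for 2.18%. For the 1728 unigenes lower in stage 5 the shares were 1.33% and 23.7%. The median levels of the 2064 were 14.6, 6.79, 7.54, 8.64 and 28.4 RPKM in stages 1 to 5 and 3.28 RPKM for the gametophyte, so stage 1 came next to stage 5. Those of the 1728 were 8.87, 29.6, 15.4, 18.8 and 9.06 RPKM in the same order, with 11.4 RPKM for the gametophyte. How stages 5 and 2 stand to each other follows from choosing the 2064 and the 1728 by their ratio. Among stages 1, 3 and 4, stage 1 had the highest median of the 2064 and the lowest of the 1728.

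**Figure D5:**
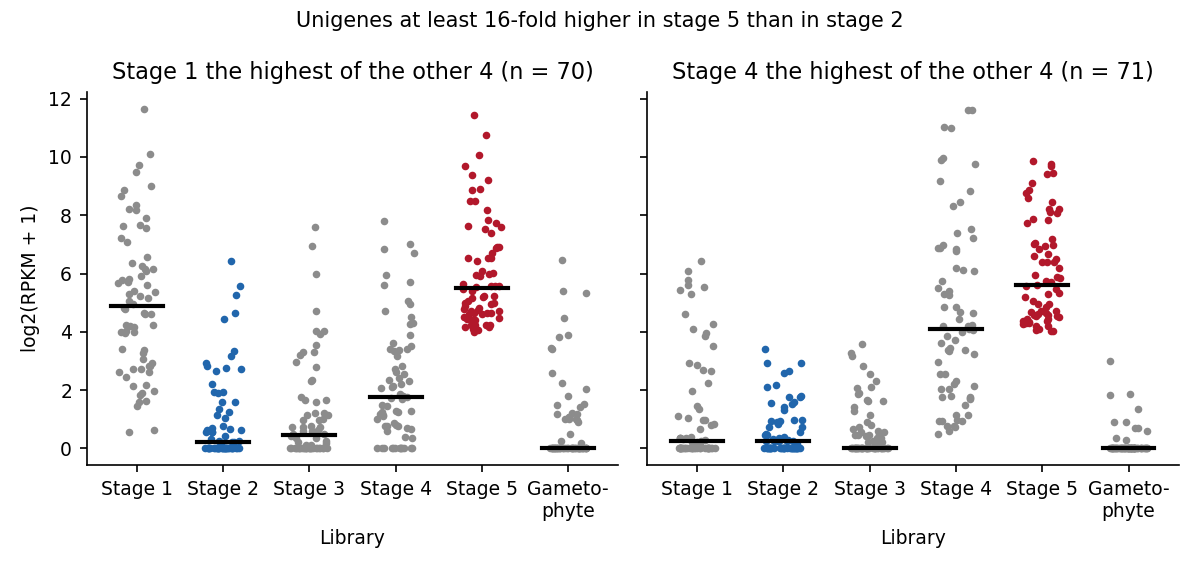
Levels as log2(RPKM + 1) in all 6 libraries of unigenes at least 16-fold higher in stage 5 than in stage 2, split by whether stage 1 (left, 70 unigenes) or stage 4 (right, 71 unigenes) was the highest of the 4 libraries not compared. Points are unigenes and black lines medians; the stage 2 and stage 3 medians lie near 0 in both panels.

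The 41 unigenes at least 16-fold lower in stage 5 (0.429% of 9554) had a median of 29.4 RPKM in stage 2, 6.55 in stage 4 and 0.0758 in stage 1. Their median was 0 in stage 3, stage 5 and the gametophyte. Stage 4 was the highest of the 4 libraries not compared for 29 of them (70.7%), against 38.4% of all 9554. No read was found in stage 5 for 26. They held 0.632% of the summed RPKM of stage 2 and 0.0278% of that of stage 5, so these strong losses weighed less than the strong gains.

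Unigene19853, of 902 bases, had the lowest log2 ratio among unigenes of 10 RPKM listed in both files. It stood at 0.774 RPKM (4 reads) in stage 5 and 142 RPKM (739 reads) in stage 2. It had no read in stages 1 and 3, 1.42 RPKM (7 reads) in stage 4 and 0.580 RPKM (2 reads) in the gametophyte. It was therefore high in stage 2 alone. Its log2 ratio was −6.34, and it had 184 times as many reads per library total in stage 2, with a 95% exact counting interval from 71.6 to 677 that its 4 reads in stage 5 keep wide.

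Of all unigenes, 35845 were listed in both files, 7478 in stage 5 but not stage 2, and 4901 in stage 2 but not stage 5. Most of these one-sided unigenes had very few recovered reads. Recovered reads can be underestimated, most of all for unigenes listed in few libraries. The numbers with few reads may therefore be too high and those with many reads too low. Of the 7478, 5362 had at most 3 reads in stage 5, and of the 4901, 3910 had at most 3 reads in stage 2. With at least 20 reads there were 213 in stage 5 and 59 in stage 2, and with at least 100 reads 30 and 9. They held 2.52% of the summed RPKM of stage 5 and 1.01% of that of stage 2.

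Abundant one-sided unigenes were found in the big capsules. In stage 5, 7 unigenes reached 100 RPKM with no read in stage 2, and the reverse number was 0. Of the 7, 4 belonged to clusters that did have reads in stage 2, and 3 of these 4 were the contigs grouped with CL8964.Contig1. With contigs summed per cluster, 4 clusters or single unigenes reached 100 RPKM in stage 5 with no read in stage 2, and the reverse number was again 0. The most abundant of the 7 was a contig of 608 bases at 690 RPKM (2405 reads). The 95% exact counting interval of its read ratio had a lower end of 654 and no upper end. Stage 4 was close to stage 5 with 576 RPKM, while stage 1 had 0.286 RPKM, stage 3 had 0.858 RPKM and the gametophyte 0. The most abundant unigene of stage 2 with no read in stage 5 had 862 bases and 53.8 RPKM (267 reads), and the interval of its read ratio, stage 2 over stage 5, had a lower end of 71.6. It was at a similar level in stages 1 and 3, with 45.6 and 54.9 RPKM, and at 16.4 RPKM in stage 4.

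Of 308 clusters with at least 2 contigs of 10 RPKM, 143 had no contig past a 2-fold ratio. Every such contig was higher in stage 5 in 37 clusters and every one was lower in 42. In 80 some but not all passed in a single direction, and in 6 one contig was higher and another lower. The most abundant contig of a cluster differed between the stages in 72 of 1543 clusters (4.67%) with at least 10 RPKM summed in both. Where the leading contig had at least 2 times the level of the next in both libraries, it differed in 3 of 1308 clusters (0.229%), and in the other exchanges the next contig came within 2 times of the leader in at least 1 of the libraries.

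Unigenes that differed were shorter than those that did not, as far as recovered lengths show. At 10 RPKM the median length was 1036 bases for the higher, 1091 for the lower and 1392 for those within 2-fold, and it was 681 bases for the 157 and 634 for the 41. Lengths were worked back from the values and can be underestimated, most of all for unigenes listed in few libraries. Contigs of clusters made up 32.1% of the higher, 31.5% of the lower and 39.4% of the others.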

How the data were processed

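The deposited values were RPKM, computed by the authors per unigene and library, per the file headers; the labels and headers do not name the assembler, the aligner or how reads were counted. A dash was read as 0. Files were joined by unigene identifier, and, as 0 of them carry a gene name, no gene list was applied. Members and lists were chosen with earlier results of these data known. Ratios are of RPKM + 1 (pseudocount 1 RPKM), which understates the change of low unigenes; a ratio of at least 2 was counted. With 1 library a side no test was run.

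Reads were recovered from RPKM. The library total is the largest at which the 300 lowest values correspond to whole lengths. The length of a unigene is the smallest, from 200 to 15000 bases, that gives whole reads in every library within 0.9 of the last printed digit. A length was found for 74566 unigenes (100%), and the reads summed to 96.1% to 99.7% of the totals. A common factor of reads and length leads to both being underestimated. Exact conditional-binomial 95% intervals of read ratios cover counting error only, also because reads are not independent molecules. The scripts were tested on simulated data. Trimmed-mean scaling left out 30% of ratios and 5% of levels at each end; median-ratio scaling set the median ratio of unigenes listed in both files, with 1 RPKM in either, to 1.

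Named unigenes were, in each direction, the largest difference in RPKM and, among unigenes of 10 RPKM listed in both files, the largest ratio, taking the next where both fell on one. Others are given by rank and values, singled out after their values were seen. Python 3.11.15, numpy 2.4.6, pandas 2.3.3 and scipy 1.17.1 were used.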

Additional observations from a re-analysis of the deposited data

How the results depend on the processing

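With a pseudocount of 0.1 RPKM, the numbers of higher and lower unigenes kept within 1.5 times of those given for RPKM as deposited. They also did so under both scalings and with contigs summed per cluster. A 2-fold ratio of RPKM + 1 needs at least 1 RPKM in the higher library, so dropping the filter could not change these numbers. They were 1171 and 931 with a pseudocount of 10 RPKM, 2064 and 1728 at 10 RPKM or more, 2163 and 1100 at a 4-fold ratio, and 2387 and 1630 with the counting interval beyond 2-fold; fewer unigenes can pass by construction. Of the changed unigenes, 60.5% were higher as deposited, 54.7% with trimmed-mean and 55.2% with median-ratio scaling; at 10 RPKM these shares were 54.4%, 46.9% and 47.4%. Unigenes listed in one library numbered 1902 (stage 5) and 886 (stage 2) at 2 RPKM and 213 and 59 at 20 reads. The share in the 100 most abundant of stage 5 and stage 2 was 16.3% and 20.7% by reads, 14.3% and 20.2% without the most abundant unigene, and 15.8% and 22.9% with contigs summed per cluster, lower in stage 5 each time; the cause of these moves was not tested. Leading contigs differed in 0.229% of clusters when they had to have at least 2 times the level of the next. The scalings of the 10 RPKM, 16-fold and level-band counts were chosen after seeing the data. The log2 ratios of the named unigenes kept their sign under all alternatives run. No paired analysis was possible because each stage had 1 library. No library could be left out for the same reason, and the spread between capsules of one stage is not known.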

Other observations

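Among the 20 largest losses, the eighth and ninth shared a recovered length of 976 bases and had similar levels in stages 1 to 4 but not in stage 5 or the gametophyte. From stage 1 to stage 5 the eighth had 2499, 1994, 4630, 893 and 167 RPKM, and the ninth had 2486, 2070, 4226, 829 and 352 RPKM. In the gametophyte the former was at 1575 RPKM and the latter at 0.536 RPKM. The pair was singled out after its values were seen. The files hold no sequences, so whether these unigenes resemble each other was not tested.

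Among the 157 unigenes at least 16-fold higher in stage 5, 3 reached a higher level in another capsule library than any of the 157 had in stage 5. The levels of the first were 3209, 7.99, 4.02, 11.1 and 292 RPKM for stages 1 to 5, and the gametophyte had 1.85 RPKM. Stage 4 was highest for the others. One had 13.6, 2.47, 8.02, 3166 and 131 RPKM from stage 1 to stage 5, the other 5.36, 6.54, 10.9, 3110 and 273 RPKM, and both had no read in the gametophyte. All 3 were singled out after their values were seen.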
